A study of Homo sapiens with 4 samples.

Results

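The chromosome 8 domain around MYC was examined for open chromatin in LNCaP cells given vehicle or GSK2879552. It spans 127.85 to 129.25 Mb of chromosome 8 in the hg19 build, a length of 1.4 Mb, and its members are the listed open regions whose summit lies within it. The vehicle list placed 125 of its 194551 regions there, and the GSK2879552 list 99 of its 163735. The rule selects members by position alone, without their measured values, but it was set with earlier results of these data known. The domain was read in 5 subregions. The PCAT1 side runs from 127.85 to 128.1 Mb, the prostate cancer risk desert from 128.1 to 128.6 Mb, and the interval holding MYC from 128.6 to 128.81 Mb. PVT1 occupies 128.81 to 129.11 Mb, and a last stretch beyond PVT1 ends at 129.25 Mb. Positions are 1-based, and distances are from peak summits to the MYC start, taken at 128748315, and are negative on the side of PCAT1. The MYC and PCAT1 positions are approximate as given.

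MYC encodes a transcription factor that binds DNA with its partner MAX and drives genes of growth and cell division. PVT1 and PCAT1 give long noncoding RNAs, PVT1 just downstream of MYC and PCAT1 at the far side of the desert. The desert holds almost no protein-coding genes, and inherited variants tied to prostate cancer risk cluster in it. Parts of it and of PVT1 act as enhancers, stretches of open DNA from which transcription factors raise the activity of a distant promoter. In the order of the RefSeq annotation of another build, PCAT2, PRNCR1, CASC19, CCAT1, CASC21, CASC8, CCAT2, POU5F1B and CASC11 lie between PCAT1 and MYC. None of them was placed in hg19, and each open region goes by its coordinates and its distance from the MYC start. No sequence is printed for this chromosome.

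LNCaP is an established line from a human prostate cancer that responds to androgens, and GSK2879552 inhibits LSD1 (KDM1A), an enzyme that removes methyl groups from histone H3. The protocol text, alike for all 4 samples, gives 50 µM GSK2879552 for 4 hours in RPMI1640 with 5% CSS, after maintenance in RPMI-1640 with 10% FBS. The agent label sets vehicle apart from GSK2879552, and the vehicle itself is not named. ATAC-seq inserts adapters into accessible DNA with the transposase Tn5. Each condition had 2 sequencing lanes described as technical replicates, and both lanes of a condition refer to 1 peak list. There was therefore 1 library per condition and no replicate check. No test between conditions was possible, and every interval below is an exact 95% interval that covers counting error only. The line was not checked against marker genes, since no marker position in hg19 was used.

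The measure is the number of tags, meaning sequenced fragments or their ends as the peak caller extended them, stacked at the summit of a peak. It was worked out from the fold and the p-value of each listed peak, as was the local background, the number of tags expected there from its surroundings. The lowest possible background is the genome-wide one, 2.31 for vehicle and 2.72 for GSK2879552. GSK2879552 tags were divided by the ratio of these, 1.18, before comparison, and ratios are GSK2879552 to vehicle after this scaling. A pair is 1 vehicle and 1 GSK2879552 peak that overlap each other and no other listed peak. Across chromosomes 1 to 22, X and Y, 110134 pairs had a ratio of summed tags of 0.683. Summits of the whole lists had a median of 22 tags for vehicle and 20 for GSK2879552.

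Over the whole domain fewer regions were listed with GSK2879552, and regions shared by both lists held fewer tags with GSK2879552 at a ratio of 0.705, which is 0.829 without scaling and 1.03 relative to all pairs. The 125 vehicle peaks covered 33.5 kb and the 99 GSK2879552 peaks 22.4 kb, which is 33.0% less, where the compared chromosomes together had 24.9% less. The domain was denser in vehicle peaks than chromosome 8, with 89.3 against 65.0 per Mb, and GSK2879552 peaks stood at 70.7 against 57.9 per Mb. PVT1 was densest, at 150 vehicle peaks per Mb, while the PCAT1 side and the risk desert each held 68.0 per Mb. Summits in the domain carried 8 to 87 tags with vehicle and 10 to 79 with GSK2879552. By tags, 13 of the vehicle peaks (10.4%) and 7 of the GSK2879552 peaks (7.07%) ranked in the top decile of their list. By the authors' −log10 p it was 13 (10.4%) and 11 (11.1%).

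**Figure D1:**
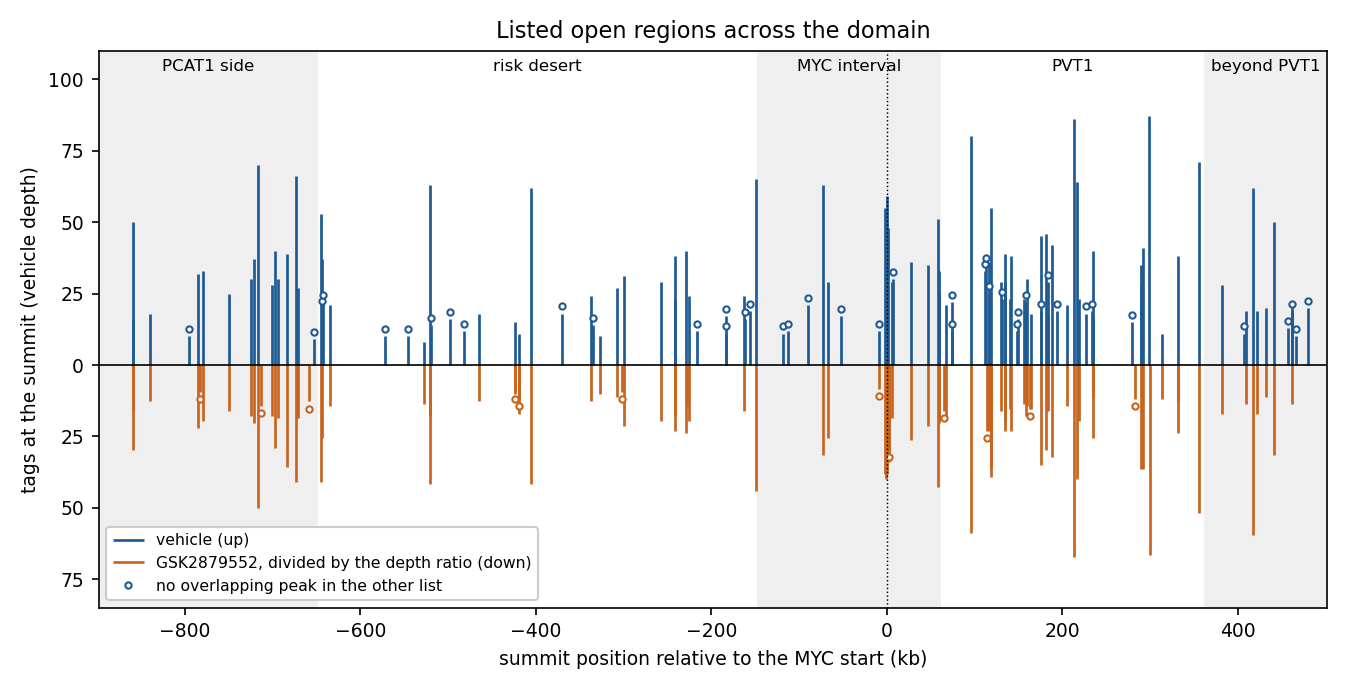
Tags at the summit of every listed region of the domain, by distance from the MYC start in kb; vehicle points up and GSK2879552, divided by the depth ratio of 1.18, points down. Shading separates the 5 subregions, and open circles mark regions with no overlapping region in the other list; the tallest bars, 87 and 86 tags with vehicle, lie in PVT1.

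Every member fell into 1 of 4 classes. There were 76 pairs, 5 vehicle peaks that each overlapped several GSK2879552 peaks (10 of them), 1 GSK2879552 peak over 2 vehicle peaks, and regions listed under 1 condition only. Over all compared chromosomes, 6037 of 191905 vehicle peaks overlapped several GSK2879552 peaks. Of 161535 GSK2879552 peaks there, 1075 overlapped several vehicle peaks. The small split and merge counts of the domain are not read as a difference from these. Vehicle-only regions numbered 42 of 125, or 33.6% (25.4 to 42.6), against 38.5% over all compared chromosomes. That share is near the background. GSK2879552-only regions numbered 12 of 99, or 12.1% (6.42 to 20.2), against 23.5% over all compared chromosomes and 27.7% on chromosome 8. The interval lies below both values. GSK2879552 peaks of the domain also had more tags than the whole list, with a median of 23 against 20, and the part of this in the lower share was not tested.

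Summed over the 76 pairs, 2684 vehicle tags stood against 2226 GSK2879552 tags. The scaled ratio was 0.705 (0.667 to 0.746), an interval that includes the 0.683 of all pairs, so the difference was of the size found across the genome. Before any scaling, 61 pairs had fewer tags with GSK2879552, or 80.3% against 83.3% of all pairs, 11 had more and 4 had equal numbers. A ratio under 0.5 was found in 3 of 76 pairs, or 3.95%, against 7.10% of all pairs. A ratio above 1 was found in 4 of 76, or 5.26%, against 5.83% of all pairs. Each share rests on at most 4 pairs of the domain, and neither is read as a difference from all pairs. GSK2879552 peaks were the narrower of the pair in 63 of 76 cases, or 82.9%, against 81.2% of all pairs, and the median width was 264 bp with vehicle and 191 bp with GSK2879552.

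**Figure D2:**
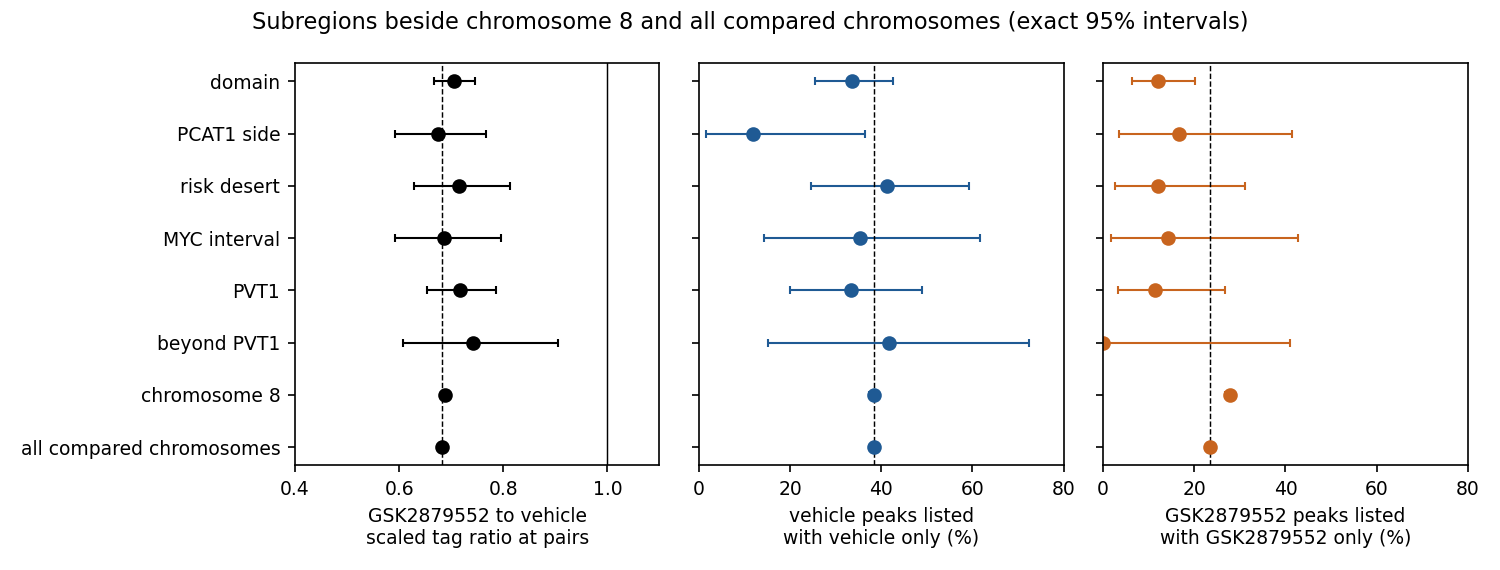
Scaled tag ratio at pairs, share of vehicle peaks listed with vehicle only and share of GSK2879552 peaks listed with GSK2879552 only, for the domain, its 5 subregions, chromosome 8 and all compared chromosomes; bars are exact 95% intervals and the dashed line is the value of all compared chromosomes. The 5 subregions have ratios from 0.674 to 0.742, and all 5 intervals include 0.683; relative to all pairs they run from 0.988 to 1.09.

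At the MYC start the vehicle list held the widest region of the domain, and the GSK2879552 list held it in 2 pieces. The vehicle peak covered 128747270 to 128748584, a width of 1315 bp, with 59 tags (44.9 to 76.1) at a summit 148 bp past the start. With GSK2879552 the same stretch was listed as 128747366 to 128747638 with 47 tags and 128748051 to 128748578 with 45 tags, 412 bp apart. The second piece has its summit 83 bp past the start, next to that of vehicle. Its scaled ratio to the vehicle peak was 0.649 (0.430 to 0.973). The first piece has its summit at -799 bp from the start. It has no vehicle value of its own, since a list gives tags only at the summit. Broad openness across a start is typical of promoters of active genes, but these lists do not measure the activity of MYC.

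Flanking regions of the MYC start had ratios close to that of the second piece. A pair at 128746308 to 128746564, with its vehicle summit at -1.85 kb, held 55 and 45 tags, a ratio of 0.696 (0.459 to 1.05). On the gene side, at 128749923 to 128750171 and 1.68 kb past the start, 48 and 40 tags gave 0.709 (0.454 to 1.10). The intervals of both pairs include 0.683 and 1. A region listed with GSK2879552 only stood at 128750821 to 128751033, 2.67 kb past the start, with 35 tags (24.4 to 48.7) over a background of 13.4. No vehicle peak lay closer to it than 649 bp. The region had 29.8 tags after scaling and stood at the 30.1 percentile of GSK2879552 peaks by −log10 p. Vehicle background at the pair 1.68 kb past the start was 17.3, and its part in the missing vehicle listing was not tested. Within 5 kb of the start there were thus 3 vehicle regions covering 1821 bp and 5 GSK2879552 regions covering 1403 bp.

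Further past the start a region was listed for vehicle only. At 128755344 to 128755512, 7.11 kb past the start, vehicle had 30 tags over a background of 8.30, and the nearest GSK2879552 peak lay 912 bp away. A pair 6.30 kb past the start had 29 and 22 tags, a ratio of 0.645 (0.353 to 1.16). On the other side, each list held a weak region of its own, 78 bp apart, with 12 vehicle tags at -9.35 kb and 10 GSK2879552 tags at -9.57 kb. The fewest tags at any listed peak were 8 with vehicle and 9 with GSK2879552, so these are near the weakest that were listed.

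**Figure D3:**
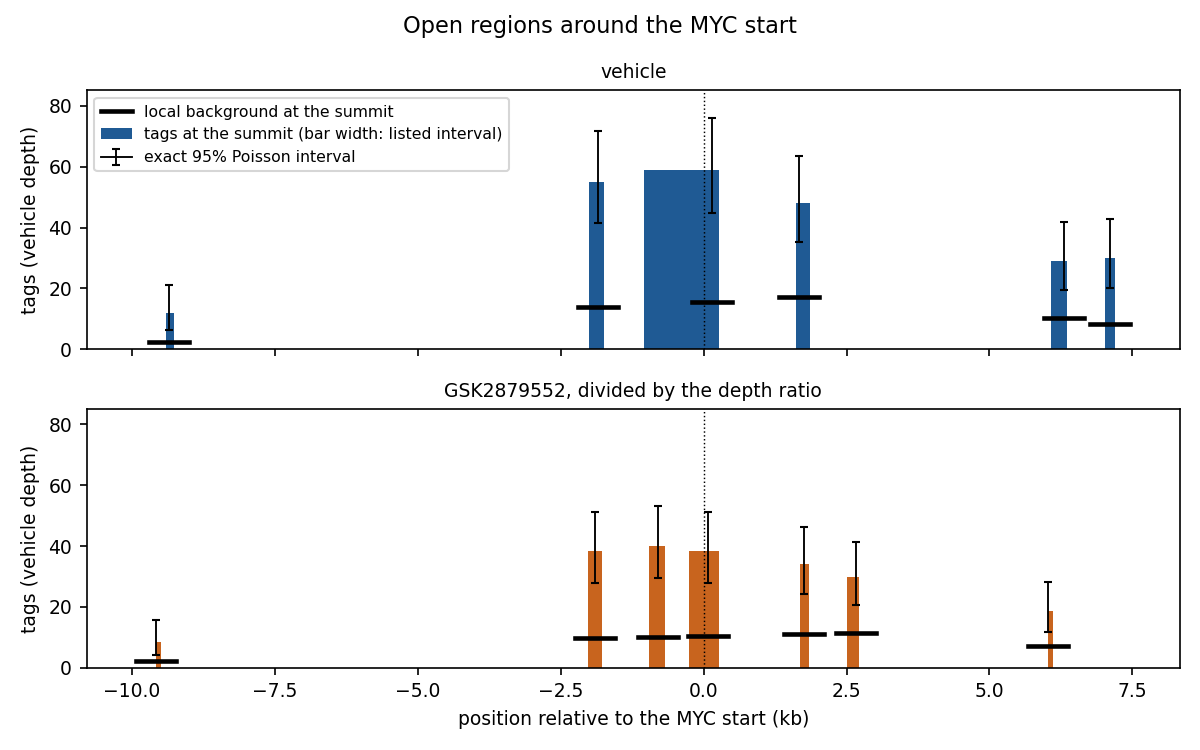
Listed regions within 12 kb of the MYC start, as bars of the listed width whose height is the number of tags at the summit (vehicle above, GSK2879552 divided by 1.18 below); thin black bars are exact 95% Poisson intervals and thick black lines the local background. The vehicle region across the start, 1315 bp wide, faces 2 narrower GSK2879552 regions, and the background lines are higher here than elsewhere in the domain.

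Local background was higher at the MYC start than anywhere else in the domain. It was 13.9 to 17.3 tags at the 3 vehicle regions within 5 kb, and at the 5 GSK2879552 regions 11.4 to 13.4 tags. The highest background more than 10 kb away was 9.56 with vehicle and 8.80 with GSK2879552. Background values came in steps of 0.01, as when 100 bp tags are averaged across a 10 kb window, so the vehicle figures correspond to 1387 to 1727 tags in such a window. At the start itself, vehicle had 1564 such tags and GSK2879552 1239, a scaled ratio of 0.674 (0.625 to 0.726).

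MYC ranked differently by the 2 measures of strength. With 59 tags its region stood at the 90.1 percentile of vehicle peaks by tags, but at the 63.1 percentile by the authors' −log10 p, which weighs tags against the local background. The authors' fold there was 3.61. In PVT1, the region at 128843896 to 128844273 had 80 tags over a background of 4.51 and an authors' fold of 14.7, and stood at the 98.6 percentile by −log10 p.

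Among pairs of the domain with both backgrounds above the genome-wide level, the background ratio was lowest around MYC. It was 0.697 (0.644 to 0.755) at the pair at -1.85 kb, 0.649 (0.604 to 0.698) at that 1.68 kb past it and 0.716 (0.653 to 0.785) at that 6.30 kb past it. Their 10 kb windows overlap, so these are not independent measures. Without scaling each ratio is 1.18 times as large, which leaves their order as it is. The median over 54 pairs of the domain with both backgrounds above the genome-wide level was 0.870 (interquartile range 0.804 to 0.925), and over 66547 such pairs of all compared chromosomes 0.892. The next lowest value of the domain was 0.727 (0.650 to 0.814), at the pair at 128027052 on the PCAT1 side. The median of the 8 such pairs of that side was 0.750, so low ratios were not confined to MYC. Across the genome, high background went with a lower ratio. Among the 5603 pairs with a vehicle background of at least 10, the median was 0.769 (0.720 to 0.836). Of these, 3.50% had a ratio below that of the pair 1.68 kb past the MYC start, 15.5% below that of the pair before it and 23.4% below that of the pair 6.30 kb past it. Tags of the peaks themselves fall in these windows, and their part in the ratio was not tested.

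**Figure D4:**
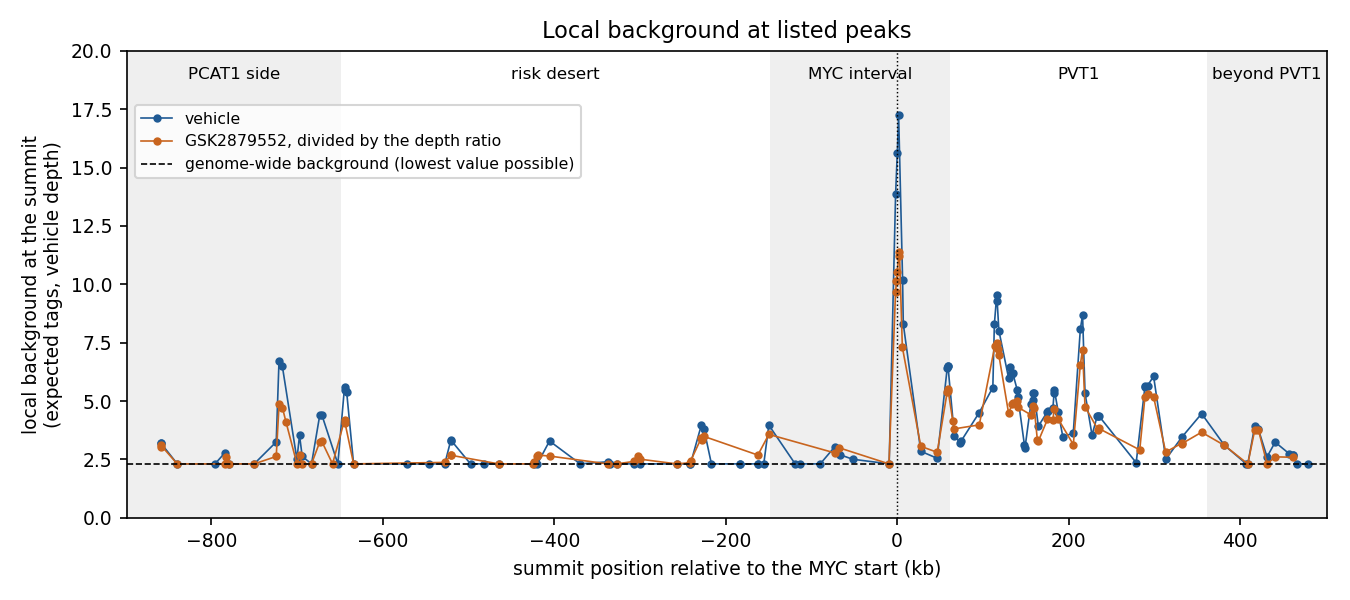
Local background at the summit of each listed region of the domain, by distance from the MYC start in kb, for vehicle and for GSK2879552 divided by 1.18; points are regions, joined in order, and the dashed line is the genome-wide background of 2.31, the lowest value possible. Values peak at MYC, up to 17.3 with vehicle, and stay above the dashed line across PVT1.

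The whole MYC interval held 81.0 vehicle and 66.7 GSK2879552 peaks per Mb, unevenly spread. Its 17 vehicle and 14 GSK2879552 peaks, those at the start included, gave 10 pairs with 405 and 327 tags, a ratio of 0.687 (0.592 to 0.796). No region was listed in either condition over the 42.3 kb from -51.9 to -9.59 kb. The vehicle region with the most tags in the interval lay at -73.1 kb, at 128675083 to 128675402, with 63 and 37 tags. Its ratio of 0.4996 (0.324 to 0.761) was among the 3 lowest of the domain, and 0.683 lies inside its interval. At -67.3 kb, the pair at 128680895 to 128681174 had 29 and 30 tags and the highest ratio of the interval, 0.880 (0.510 to 1.52), which was 1.03 without scaling. The intervals of these neighbours upstream of MYC overlap. Vehicle-only regions of the MYC interval were 6 of 17, or 35.3% (14.2 to 61.7), against 38.5% over all compared chromosomes. GSK2879552-only regions were 2 of 14, or 14.3% (1.78 to 42.8), against 23.5%. Both ranges include the genome-wide share. The vehicle-only regions included 128658485 to 128658672, at -89.8 kb, with 21 tags (13.0 to 32.1) and no GSK2879552 region within 16409 bp. Another, at 128696159 to 128696393 and -52.0 kb, had 17 tags.

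A cluster of 3 pairs stood 58.4 to 59.2 kb past the MYC start, just short of the limit where PVT1 begins, 61.7 kb past it. That limit is given in steps of 10 kb, so whether the cluster lies at the PVT1 start was not resolved. Its strongest pair, at 128806284 to 128806909, held 51 and 50 tags, a ratio of 0.834 (0.553 to 1.26), while its width was 626 bp with vehicle and 321 bp with GSK2879552. The other pairs of the cluster held 26 and 24, and 33 and 23 tags.

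PVT1 was the subregion with the most open regions in both lists. It held 45 vehicle and 35 GSK2879552 peaks in 300 kb, and the median summit spacing was 3.99 kb with vehicle and 4.68 kb with GSK2879552, against 7.02 and 6.23 kb over the domain. No PVT1 region in either list stood at the genome-wide background, whereas 28.8% of the domain's vehicle regions and 40.3% of those of all compared chromosomes did. The median background in PVT1 was 5.04 with vehicle and 5.29 with GSK2879552, while in the MYC interval it was 3.03 and 6.44. Each median is over the peaks of its own list, which differ between conditions. At the 10 pairs of the MYC interval the median scaled background ratio was 0.843 (interquartile range 0.747 to 1.04). The 26 pairs of PVT1 summed to 998 and 841 tags, a ratio of 0.717 (0.653 to 0.786).

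By vehicle tags, the 3 strongest PVT1 elements were also the strongest of the domain. The first, 299.1 kb past MYC at 129047258 to 129047713, had 87 and 78 tags, a ratio of 0.763 (0.554 to 1.05). Next was 128961711 to 128962269, 213.7 kb past MYC, with 86 and 79 tags and a ratio of 0.781 (0.568 to 1.07). The third, at 128843896 to 128844273 and 95.8 kb past MYC, had 80 and 69 tags and a ratio of 0.734 (0.524 to 1.03). All 3 ratios are above the 0.683 of all pairs, and each interval includes it. With a correction for a limit of 1 tag per position and strand they were 0.736, 0.760 and 0.705. No value for all pairs with this correction is given here. The first element was wider with GSK2879552 than with vehicle, at 500 and 456 bp. The others were nearly as wide with GSK2879552 as with vehicle, at 508 and 559 bp and at 377 and 378 bp.

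Among weaker elements of PVT1 there were ratios below and above these. At 128908108 to 128908357, 159.9 kb past MYC, 30 and 17 tags gave 0.482 (0.249 to 0.902), one of the 3 lowest ratios among the 57 pairs of the domain with 40 or more summed tags. At 129040260 to 129040696, 292.1 kb past MYC, 41 and 43 tags gave 0.892 (0.568 to 1.40), which turned to 1.05 without scaling. Just before it the only merged region of the domain was found, where 2 vehicle peaks of 35 and 28 tags, 96 bp apart, were listed as 1 GSK2879552 peak of 424 bp with 43 tags. The ratio to the stronger vehicle peak was 1.05 (0.653 to 1.68). The opposite occurred at 128866276 to 128867120, 118.6 kb past MYC, where a vehicle peak of 845 bp and 55 tags faced GSK2879552 peaks of 42 and 46 tags, 86 bp apart.

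Vehicle-only regions in PVT1 were 15 of 45, or 33.3% (20 to 49.0), against 38.5% over all compared chromosomes. GSK2879552-only regions were 4 of 35, or 11.4% (3.20 to 26.7), against 23.5%. Both intervals include the genome-wide share. The strongest for vehicle by −log10 p, at 128859829 to 128859963 and 111.6 kb past MYC, had 33 tags (22.7 to 46.3), with the nearest GSK2879552 peak 2079 bp away. The next, at 128931553 to 128931682, had 29 tags but lay 68 bp from a GSK2879552 peak. A vehicle-only region of 35 tags 113.4 kb past MYC and a GSK2879552-only region of 27 tags 113.9 kb past it were 276 bp apart, so both lists held a region at this place without an overlap. The other GSK2879552-only region picked by −log10 p, at 128911780 to 128911885, had 18 tags.

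**Figure D5:**
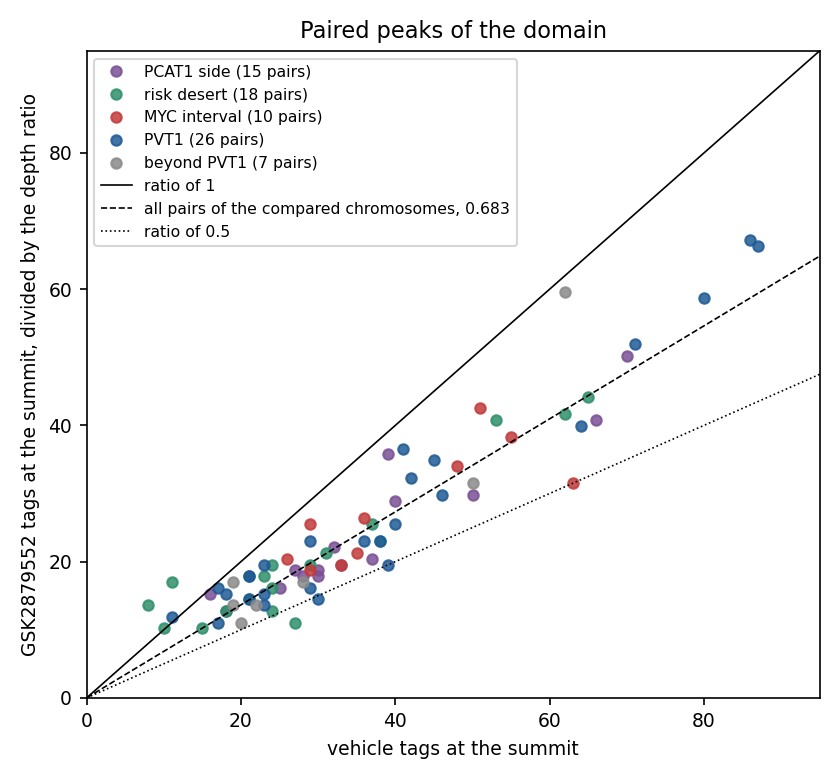
Vehicle tags against GSK2879552 tags divided by 1.18 at the summits of the 76 pairs of the domain, coloured by subregion; lines mark ratios of 1 and 0.5 and the 0.683 of all compared chromosomes. Among pairs of 40 or more summed tags, 57 in all, ratios run from 0.410 to 0.960, and the 4 points above the line of 1 have at most 11 vehicle tags.

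The PCAT1 side was the only one of the 5 subregions with more GSK2879552 than vehicle peaks, 18 against 17. Vehicle-only regions were 2 of 17, or 11.8% (1.46 to 36.4), an interval below the 38.5% of all compared chromosomes. They had 10 and 9 tags. Vehicle peaks of this side had a median of 30 tags, against 22 over all compared chromosomes. The part of this in the low share was not tested. GSK2879552-only regions were 3 of 18, or 16.7% (3.58 to 41.4), an interval that includes the 23.5% of all compared chromosomes, and had 11 to 17 tags. The first by −log10 p, at 128089567 to 128089674, had 15 tags. The 15 pairs summed to 541 and 429 tags, a ratio of 0.674 (0.593 to 0.767), 0.793 without scaling and 0.988 relative to all pairs.

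Near the PCAT1 position of 128.03 Mb stood the strongest region of this side. It covered 128030736 to 128031427 and held 70 and 59 tags, a ratio of 0.717 (0.498 to 1.03). With 667 bp it was the widest GSK2879552 region of the whole domain, against 692 bp with vehicle. Counted from the PCAT1 position, pairs at -2.88 and -6.12 kb had 37 and 24, and 30 and 21 tags. A region listed with GSK2879552 only, 5.32 kb after it, had 17 tags.

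Elements between PCAT1 and the desert were mixed in value. At 128074470 to 128075175, -673.5 kb from MYC, 66 and 48 tags gave 0.619 (0.417 to 0.911). The pair at 128064898 to 128065178, -683.2 kb from MYC, had 39 and 42 tags and a ratio of 0.916 (0.578 to 1.45), one of the 3 highest of the larger pairs, and 1.08 without scaling. Towards the outer end, at -859.3 kb, the region at 127888918 to 127889205 had 50 and 35 tags, a ratio of 0.595 (0.375 to 0.936).

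In the risk desert, regions with many tags were listed under both conditions, and regions of 1 list only had at most 22 tags. It held 34 vehicle and 25 GSK2879552 peaks. Its pairs, 18 in number, summed to 520 and 437 tags, a ratio of 0.715 (0.628 to 0.813). Vehicle-only regions were 14 of 34, or 41.2% (24.6 to 59.3), against 38.5% over all compared chromosomes, and had 10 to 22 tags. GSK2879552-only regions were 3 of 25, or 12% (2.55 to 31.2), against 23.5%, and had 11 to 14 tags. Both intervals include the genome-wide share.

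The strongest pair of the desert lay at its MYC end, -149.8 kb from MYC at 128598182 to 128598743, with 65 and 52 tags and a ratio of 0.680 (0.463 to 0.995). A region at -405.6 kb, at 128342378 to 128343010, had 62 and 49 tags and a ratio of 0.672 (0.453 to 0.994). At the PCAT1 end, 128103376 to 128103781 had 53 and 48 tags and a ratio of 0.770 (0.510 to 1.16). These values sit near the 0.683 of all pairs.

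Another strong desert element was listed in pieces. The vehicle peak at 128227274 to 128227818, -520.6 kb from MYC, had 63 tags over 545 bp. GSK2879552 had 2 peaks there, of 178 and 200 bp, with 21 and 49 tags. The piece with the nearer summit had a ratio of 0.662 (0.446 to 0.976). The shoulder with 21 tags has no vehicle value of its own, since a list gives tags only at the summit. A second split vehicle peak, 868 bp wide at 128519672 to 128520539, had 40 tags against GSK2879552 peaks of 28 and 17 tags.

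The lowest and the highest ratios of the domain were both in the desert. At 128440810 to 128441221, -307.4 kb from MYC, vehicle had 27 and GSK2879552 13 tags, a ratio of 0.410 (0.194 to 0.821), and the listed widths were 412 and 174 bp. The highest values, named after they were seen, came from weak regions. At 128220431 to 128220593 there were 8 and 16 tags, a ratio of 1.70 (0.687 to 4.59), and at 128328439 to 128328566 11 and 20 tags, a ratio of 1.55 (0.706 to 3.57). These are the only 2 of the 76 pairs whose interval lies wholly above 0.683, and both intervals include 1. Among pairs with under 40 tags in all, 4 of 19 in the domain and 16.0% of all pairs had a ratio above 1. Of those with at least 40 tags, 0 of 57 and 2.02% had one.

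Vehicle-only elements of the desert were spread along it. The first by −log10 p, at 128592597 to 128592741, had 19 tags (11.4 to 29.7) at the genome-wide background, and the nearest GSK2879552 peak was 5508 bp away. The next, at 128378451 to 128378611 and -369.8 kb, had 18 tags and no GSK2879552 region within 31945 bp. A list does not give the tags at positions it leaves out, so no ratio can be given there. The first GSK2879552-only region of the desert, at 128328749 to 128328996, had 14 tags and lay 182 bp from a vehicle peak.

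Beyond PVT1 the vehicle list held 12 regions and the GSK2879552 list 7, and all 7 paired with a vehicle region. The GSK2879552-only share was thus 0% (0 to 41.0), against 23.5% over all compared chromosomes. Their tags summed to 220 and 192, a ratio of 0.742 (0.608 to 0.905). The strongest of them, 417.2 kb past MYC at 129165291 to 129165693, had 62 and 70 tags. This was the highest ratio among pairs of the domain with at least 40 tags, at 0.960 (0.672 to 1.37), and it was 1.13 without scaling. Further out, 441.0 kb past MYC, the pair at 129188934 to 129189558 had 50 and 37 tags and a ratio of 0.629 (0.400 to 0.982). A pair 381.7 kb past MYC had 28 and 20 tags. Vehicle-only regions were 5 of 12, or 41.7% (15.2 to 72.3), against 38.5%, so neither share is separated from the genome-wide one. They had 10 to 20 tags, the most at 129227578 to 129227700 with no GSK2879552 region within 17872 bp.

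Counted pair by pair, the intervals separate few elements from the common value. The exact interval lay below 1 for 11 of the 76 pairs, or 14.5%, against 26.8% of all pairs. Without scaling it did so for 2 of 76, or 2.63%, against 5.48% of all pairs. It included 0.683 for 74 pairs, or 97.4%, against 99.1% of all pairs. The other 2 are the weak desert pairs with the highest ratios.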

How the data were processed

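ATAC-seq of LNCaP cells was represented by 1 peak list per condition, which the labels of both lanes name. Per the submitters' processing notes, which give no role or order, the tools were MACS2 2.1.2, BWA 0.7.2 and SAMtools 0.1.18, with the builds hg19 and GRCh37. Steps not given in the sources used here include trimming, the handling of duplicates and any shift of reads. Per peak, the deposited lists hold a score, a fold, a −log10 p, a −log10 q and a summit offset. The score deposited by the authors follows the −log10 q and was not used further. The deposited fold is the ratio of tags to background, each with 1 added.

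Tags and background were solved from the fold and −log10 p, matching within 0.001 in 100% of rows of both lists, and in 100% of 5000 simulated peaks. Comparison was limited to chromosomes 1 to 22, X and Y, and overlap meant at least 1 bp. Shares have Clopper-Pearson, tag numbers Poisson and tag ratios binomial intervals; neighbouring positions share tags. Ratios were scaled by the genome-wide backgrounds, 2.72 to 2.31. Alternatives were other scalings, a stricter −log10 q, other overlap rules and lists of equal length. Others were background subtraction, a correction for a limit of 1 tag per position and strand, and only pairs with at least 60 tags. The most tags at any listed summit were 197 with vehicle and 199 with GSK2879552. Positions of MYC, PCAT1, PVT1 and the desert came with the definition of the domain. Named regions were those within 5 kb of the MYC start, the 3 pairs with the most tags and up to 2 regions of 1 list only per subregion and list, the 3 highest and 3 lowest ratios among pairs of at least 40 tags, and the widest peak of each list. Split and merged regions, the cluster beside PVT1, regions near PCAT1 and a few others were added after their values were seen, as was the comparison of local backgrounds. The members, rules and lists were chosen with earlier results of these data known. Gene lists and marker promoters, planned for an annotation of hg19, were not analysed here. Python 3.11.15, NumPy 2.4.6, pandas 2.3.3, SciPy 1.17.1 and Matplotlib 3.10.9 were used.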

Additional observations from a re-analysis of the deposited data

How the results depend on the processing

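No replicate could be left out, since each list stands alone for its condition. Depth limits single pairs, most of whose intervals include 1. No paired analysis was possible because the replicate numbers mark lanes that share 1 list. Without scaling for depth the tag ratio was 0.829 for the domain, 0.793 for the PCAT1 side, 0.840 for the risk desert, 0.807 for the MYC interval and 0.843 for PVT1. The interval of a single pair lay below 1 for 2 of the domain's pairs instead of 11. Scaled by the summed tags of all pairs, which sets the genome-wide ratio to 1, the tag ratio was 1.03, 0.988, 1.05, 1.01 and 1.05, and 1.09 beyond PVT1, so directions there are relative to other pairs. Both shifts follow from the scaling itself. With a reciprocal overlap of 50%, 52.0% of the domain's vehicle peaks and 65.7% of its GSK2879552 peaks had a partner, where the main shares were 66.4% and 87.9%. Over all compared chromosomes the main shares were 61.5% and 76.5%. Partner shares under the alternatives are for the domain only, so they have no genome-wide value beside them. With lists of equal length the vehicle share was 75.7%, and with only peaks of −log10 q 5 or more the GSK2879552 share was 94.4%. At that level PVT1 held 21 GSK2879552 peaks instead of 35, since the level removes weak peaks. The pairs at 128064898, 129040260 and 129165291 had ratios of 1.08, 1.05 and 1.13 without scaling. The other 82 values for the domain and subregions stayed within their intervals or within 1.5 times the count, and 57 of 60 values for named pairs within theirs. These include moving the PVT1 limit 5 kb nearer to MYC, an alternative chosen after the data were seen. They also include the domain's GSK2879552 partner share, 82.8% with lists of equal length and with summits within 250 bp.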

Other observations

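Stretches without any listed region in either condition were measured in the domain only, so their lengths have no genome-wide value beside them. The longest, 61.8 kb, lay in the risk desert from -634.0 to -572.2 kb, followed by 43.8 kb on the PCAT1 side and by 43.4 kb inside PVT1, from 235.3 to 278.8 kb past the MYC start. In the GSK2879552 list the largest distance between neighbouring summits was 106.4 kb, in the desert, against 62.0 kb with vehicle. In 50 kb bins the vehicle list held at least 1 region in each of 28 bins, and the GSK2879552 list held none in 3 of them. Vehicle had more regions in 15 bins, GSK2879552 in 4, and 9 were equal. Bin counts and largest summit distances were also taken in the domain only. The vehicle list is the longer one across the genome, so no trait of the domain is read from them.

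A pattern in the local background of the desert was noticed after the values were seen. Of the 12 desert pairs whose vehicle region stood at the genome-wide background, 8 had a GSK2879552 background above that of its own library (2.77 to 3.16 against 2.72). Over all compared chromosomes this was so for 8.61% of 35609 such pairs. On the PCAT1 side it was so for 0 of 4, and beyond PVT1 for 0 of 1. The MYC interval and PVT1 had no such pair, so the count could not be made there. At their pairs with both backgrounds above the genome-wide level, the scaled background ratio ran from 0.649 to 1.10 in the MYC interval. In PVT1 it ran from 0.750 to 1.12. The windows of neighbouring pairs can overlap, and the cause was not tested.

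Of the 12 GSK2879552-only regions of the domain, 5 lay within 1 kb of a vehicle region, and the farthest was 6072 bp away. The 42 vehicle-only regions lay up to 44272 bp from a GSK2879552 region, with a median of 5396 bp, and 11 of them within 1 kb. Such distances were taken in the domain only, so they have no genome-wide value beside them. Since the vehicle list is the longer one across the genome, no trait of the domain is read from this contrast.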
